A study of Homo sapiens with 4 samples.

Results

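Transcripts of 9 myeloid lineage transcription factors, SPI1, KLF4, GFI1, RUNX1, GATA1, GATA2, MAF, EGR1 and EGR2, were examined in THP1 cells that had received a miR-511 mimic. Members were the non-control probes of the array whose gene name is one of these symbols. They comprised 13 of 34127 probes and 9 of 27193 distinct names, with 5 probes for RUNX1 and 1 for each other gene. A probe is a 60-base strand of DNA printed on the array that binds the labeled copy of a transcript.

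THP1 is a human monoblastic acute myeloid leukemia cell line that carries the MLL-AF9 fusion gene. Cells were transfected once with 30 nM of a synthetic precursor of hsa-miR-511-5p (miR-511 mimic) or with the same dose of negative control #1 mimic, kept in DMEM/Ham's F12 with little serum and added albumin, and harvested on day 2. The 4 single-dye arrays came from 2 independent experiments, each with 1 array per treatment, and all cells belonged to 1 line. Values below are log2 intensities after quantile normalization, and a difference is miR-511 mimic minus control mimic (log2FC).

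Lineage transcription factors bind regulatory DNA and set which program a blood progenitor follows. PU.1, the product of SPI1, drives monocyte and macrophage genes and opposes GATA1, which drives erythroid and megakaryocyte genes, while GFI1 represses monocyte genes in favor of granulocytes. EGR1 and EGR2 are at once lineage factors of monocytes and early response genes, transcribed within minutes of a growth signal through serum response factor (SRF) bound at CArG boxes.

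The sequence of the transfected miRNA and those of 4 coding probes are shown to describe what was transfected and how transcripts were measured. The GATA1 probe among them was not tested, and no sequence was searched for miRNA sites. The mature miRNA lies on chr10:17845122-17845142 (+ strand, GRCh38.p14, RefSeq), with its seed, bases 2 to 8, in capitals. The probes are given as the files list them, with hg19 coordinates. Where they lie in the coding sequence is background knowledge and was not computed here. The KLF4 probe lies at chr9:110248049-110248108 in the zinc finger coding sequence. The first RUNX1 probe lies at chr21:36231787-36231846 in the sequence of the runt domain, which binds DNA, and the other at chr21:36171601-36171660 in coding sequence further downstream. The GATA1 probe is assigned to chrX:48650853-48651615, an interval of 763 bases for a 60-base probe, so it spans a splice junction.
hsa-miR-511-5p: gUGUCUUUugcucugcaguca
KLF4 A_23_P32233: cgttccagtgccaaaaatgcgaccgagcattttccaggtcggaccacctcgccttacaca
RUNX1 A_33_P3211809: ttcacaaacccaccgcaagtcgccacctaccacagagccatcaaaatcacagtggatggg
RUNX1 A_33_P3211818: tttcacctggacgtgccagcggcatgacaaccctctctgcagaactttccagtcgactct
GATA1 A_24_P374244: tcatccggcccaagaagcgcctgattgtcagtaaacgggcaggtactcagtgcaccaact

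Between 22130 and 23647 of all probes were well above background per array, the scanner software's call for a measurable spot. Of 10 monoblastic marker genes on the array, 9 were well above background on all 4 arrays, among them CD33, CSF1R, MPO and HOXA9. MEIS1 was the exception. EPCAM, CDH1, COL1A1 and COL3A1 were well above background on none. Of the other marker lists, 4 of 5 erythroid, 3 of 4 megakaryocytic, 1 of 5 T cell (CD3D), 3 of 4 B cell and 2 of 6 epithelial or fibroblast genes (KRT8 and KRT18) were above background on all 4 arrays by at least 1 probe.

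No member probe passed the threshold for differential expression. Of 22638 tested probes, 498 (2.20%) passed an unadjusted p below 0.05 in limma, and none of the 12 tested member probes was among them. No tested probe passed after Benjamini-Hochberg adjustment (smallest adjusted p = 0.790). All 12 tested member probes were well above background on all 4 arrays, and the GATA1 probe was on none. The smallest unadjusted p among the members was 0.156, for EGR1. The median log2FC of the 12 probes was 0.01, as was that of all tested probes. An exact permutation test of 1 probe (two-sided) can reach no p below 0.333 with 2 arrays per treatment, so each gene is described by its values and by the interval of its difference. The RNA came from all cells of a culture, so a change in each cell and a change in the share of cells with the transcript cannot be told apart. In 3 of the 12 probes the difference had the same sign in both experiments, against 51.0% of all tested probes. These were SPI1, KLF4 and the RUNX1 probe A_33_P3211804. The difference of that RUNX1 probe in experiment 2 was only -0.0012, a size reached or exceeded by 99.2% of all tested probes.

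**Figure D1:**
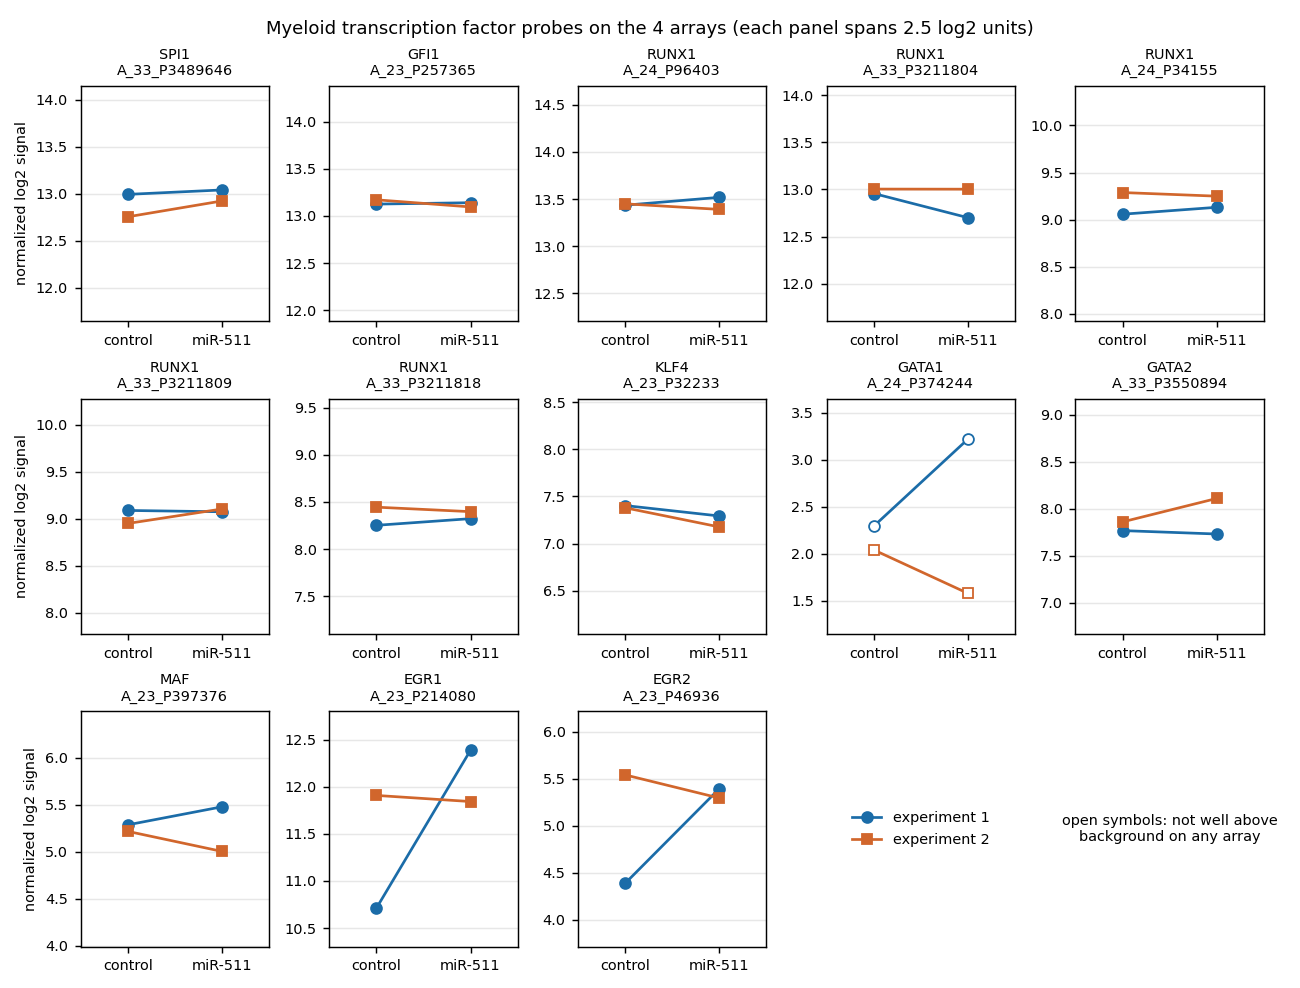
Normalized log2 signal of the 13 member probes (vertical axis, each panel spanning 2.5 log2 units) with control mimic and miR-511 mimic (horizontal axis). Lines join the 2 arrays of an experiment. EGR1 and EGR2 had 1 low array, the control of experiment 1, and the open symbols of GATA1 were not well above background.

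SPI1 encodes PU.1, the ETS factor at the head of the monocytic program. Its probe (A_33_P3489646, chr11:47376464-47376523, hg19) read 13.04 with miR-511 mimic and 12.99 with control mimic in experiment 1, and 12.92 and 12.75 in experiment 2. Before normalization the miR-511 array was the dimmer one in experiment 1 (scanner intensity 7319 against 8330). After it, the miR-511 array was the higher one in both experiments. The treatments still overlapped, since the control of experiment 1 exceeded the miR-511 array of experiment 2. SPI1 therefore averaged 12.98 ± 0.08 with miR-511 mimic and 12.87 ± 0.17 with control mimic (SD, n = 2), a log2FC of 0.11 with a 95% interval from -0.24 to 0.46 in limma. Without the control array of experiment 2 the log2FC was -0.01.

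KLF4, a zinc finger factor that promotes monocyte differentiation, was the 1 tested member whose treatments did not overlap. Its probe read 7.29 with miR-511 mimic and 7.40 with control mimic in experiment 1, and 7.18 and 7.38 in experiment 2. Both miR-511 arrays thus lay below both controls, by differences of -0.11 and -0.20. The log2FC was -0.16 (SE 0.10, 95% interval -0.42 to 0.11, limma unadjusted p = 0.179, adjusted p = 1.00). Non-overlap was common on these arrays, as it held for 25.7% of all tested probes. The log2FC of KLF4 lay between -0.22 and -0.10 with each array left out and was -0.07 (unadjusted p = 0.396) with normexp background correction, described below for EGR2.

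GFI1, a repressor that favors granulocytes over monocytes, varied least among the 12 tested member probes. Its probe (A_23_P257365, chr1:92940780-92940838) read 13.14 and 13.13 in experiment 1 and 13.10 and 13.17 in experiment 2, miR-511 mimic first. All 4 arrays lay within 0.08 log2 units. The log2FC was -0.03, with a 95% interval from -0.28 to 0.22.

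RUNX1, the runt domain factor that blood stem cells need to form and that binds DNA with CBFB, was measured by 5 probes at different places in the gene. The brightest, A_24_P96403 (chr21:36160391-36160450), read 13.52 with miR-511 mimic and 13.43 with control mimic in experiment 1, and 13.39 and 13.45 in experiment 2. Its log2FC was 0.01 (95% interval -0.26 to 0.28), and the experiments differed in sign.
The probe A_33_P3211804 (chr21:36164083-36164142) gave the lowest difference of the 5. It read 12.70 and 12.96 in experiment 1 and 13.00 in both arrays of experiment 2. The log2FC of -0.13 (SE 0.14) thus came from the miR-511 array of experiment 1, and without that array it was 0.02.
The probe A_24_P34155 (chr21:36193583-36193642) is assigned to NM_001122607, a short isoform that keeps the runt domain and lacks the transactivation region. It read 9.13 and 9.06 in experiment 1 and 9.25 and 9.29 in experiment 2, a log2FC of 0.02 (95% interval -0.33 to 0.36). The runt domain probe A_33_P3211809 gave 9.07, 9.09, 9.10 and 8.95 in the same order, and the coding probe A_33_P3211818 gave 8.32, 8.25, 8.40 and 8.44. Their log2FC were 0.07 and 0.01. In all, 3 of the 5 probes were higher with miR-511 mimic in experiment 1 and 1 of 5 in experiment 2. The 5 log2FC lay between -0.13 and 0.07, with SE of 0.10 to 0.14. CBFB, the partner, had a log2FC of 0.04 (SE 0.10).

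**Figure D2:**
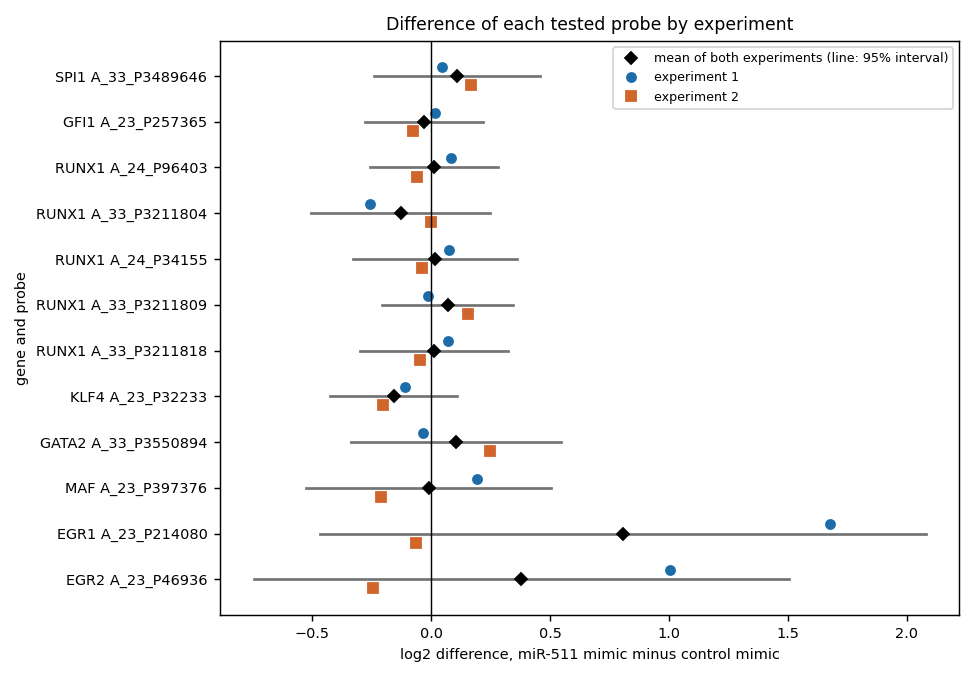
Difference of each of the 12 tested member probes on the log2 scale (horizontal axis), in experiment 1 (circles), in experiment 2 (squares) and as their mean with its 95% interval from limma (diamonds and lines). Each interval holds 0, and the intervals of EGR1 and EGR2 are the widest.

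GATA1, the erythroid and megakaryocyte factor, was not well above background. Its probe failed that call on each of the 4 arrays, so no fold is given, and the scanner intensities of 3.04 to 7.71 have no order. GATA2, which maintains progenitors and mast cells, was measured (A_33_P3550894, chr3:128199547-128199606). It read 7.73 with miR-511 mimic and 7.77 with control mimic in experiment 1, and 8.11 and 7.86 in experiment 2. The miR-511 array was thus lower in the first experiment and higher in the second. The log2FC of 0.11 had a 95% interval from -0.34 to 0.55, and it was -0.08 without the miR-511 array of experiment 2.

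MAF, a basic leucine zipper factor of macrophages, was dim. Its probe (A_23_P397376, chr16:79628258-79628317) read 5.48 and 5.29 in experiment 1 and 5.00 and 5.22 in experiment 2, miR-511 mimic first. The differences of 0.19 and -0.21 had opposite signs and averaged -0.01 (95% interval -0.53 to 0.50). Scanner intensities were between 34.5 and 42.5.

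EGR1 and EGR2 were the members with the widest spread. The EGR1 probe (A_23_P214080, chr5:137804891-137804950) read 12.39 with miR-511 mimic and 10.71 with control mimic in experiment 1, against 11.84 and 11.91 in experiment 2. The scanner intensities, before normalization, were 4677, 1735, 4021 and 3893 in that order. In experiment 2 normalization thus turned the order of the 2 arrays. The control array of experiment 1 was low, and the other 3 lay within 0.55 log2 units of each other.
The EGR1 difference was thus 1.68 in experiment 1 and -0.07 in experiment 2. The mean difference was 0.81 (SE 0.47, 95% interval -0.47 to 2.08, limma unadjusted p = 0.156, adjusted p = 1.00). Averages were 12.12 ± 0.39 with miR-511 mimic and 11.31 ± 0.85 with control mimic (SD, n = 2).
The difference between the 2 control arrays, 1.20 for EGR1, was reached or exceeded by 181 of 22638 tested probes (0.800%), where the median was 0.14.

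The EGR2 probe (A_23_P46936, chr10:64571850-64571909) was dim and had the same low array. It read 5.39 with miR-511 mimic and 4.39 with control mimic in experiment 1, and 5.29 and 5.54 in experiment 2. The differences were 1.00 and -0.25, with a mean of 0.38 (SE 0.41, 95% interval -0.75 to 1.51, limma unadjusted p = 0.406, adjusted p = 1.00). The control arrays differed by 1.15. After normexp background correction, which adds an offset of 50 to each intensity, the log2FC of EGR2 was 0.10.
Neither EGR gene passed the unadjusted threshold with 4 arrays, and the log2FC of both depended on which control array was left out. Leaving out the control of experiment 2 made the low array the only control. Without the control of experiment 2, limma gave EGR1 a log2FC of 1.40 (unadjusted p = 0.0176, adjusted p = 1.00) and EGR2 one of 0.95 (unadjusted p = 0.00640, adjusted p = 0.866), the lone control array being assumed to vary like the others. Without the control of experiment 1 the log2FC of EGR1 was 0.21 and that of EGR2 was -0.20. Whether the treatments differed between experiments could not be tested, as each experiment had 1 array per treatment.

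**Figure D3:**
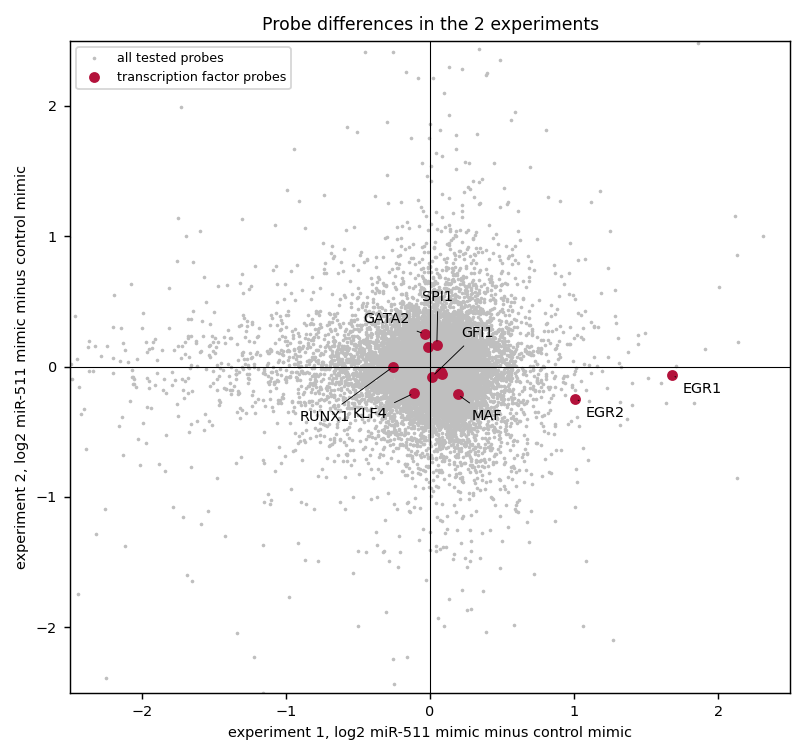
Log2FC of single probes in experiment 1 (horizontal axis) and experiment 2 (vertical axis) for tested probes (gray) and the 12 member probes (red, 1 RUNX1 probe labeled). EGR1 (1.68 and -0.07) and EGR2 (1.00 and -0.25) lie to the right of the other members, and 50 tested probes lie outside the axes, which end at 2.5.

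**Figure D4:**
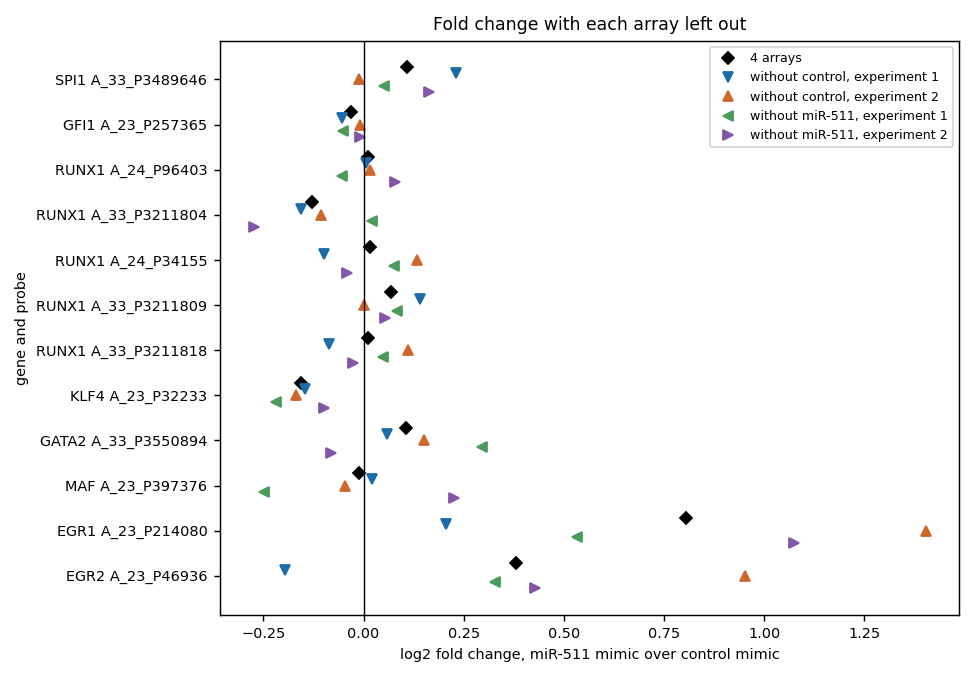
The log2FC of each tested member probe (horizontal axis) with 4 arrays (diamonds) and with each array left out (triangles). EGR1 ranged from 0.21 to 1.40 and EGR2 from -0.20 to 0.95, while the other probes stayed between -0.27 and 0.30.

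CArG boxes near the starts of EGR1 and EGR2 are shown because SRF bound at such boxes is a known route to the transcription of both. The stretches come from RefSeq promoter windows of GRCh38.p14, with CArG boxes in capitals: chr5:138465349-138465430 (+ strand) for EGR1 and chr10:62816403-62816462 (- strand) for 1 of 3 starts of EGR2.
EGR1: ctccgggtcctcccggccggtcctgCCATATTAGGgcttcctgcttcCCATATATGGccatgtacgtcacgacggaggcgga
EGR2: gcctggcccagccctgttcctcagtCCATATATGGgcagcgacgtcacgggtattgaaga
The EGR1 boxes begin 105 and 83 bases before the start of transcription and the EGR2 box 71 bases before it. A CArG box was found in the 250 bases before the start in 407 of 35116 windows (1.16%), both strands being covered because the motif reads alike on each, and 11 windows held at least 2. Of the 13 windows of 8 members, 2 had one. No window was available for SPI1, so it was not searched. The windows of FOS, FOSB, JUN and JUNB had none within these 250 bases, and 1 of the 2 SRF windows had 2. Boxes further upstream were not searched for, so a gene without a match may still have one. The EGR binding motif GCGTGGGCG, searched on both strands, was in none of the 13 and in 0.720% of all windows. A match is a description of these letters and not a measured site.

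Other early response genes were followed on the same arrays, chosen after their values were seen. FOS, the AP-1 subunit, was 0.54 higher with miR-511 mimic in experiment 1 and differed by -0.06 in experiment 2. JUNB gave 0.37 and -0.05. FOSB gave 0.46 and 0.19, and JUN, its dimer partner, gave 0.14 and 0.06. None passed the unadjusted threshold. FOS, FOSB, JUNB and JUN, like EGR1 and EGR2, were lowest in the control of experiment 1, as were 25.5% of all tested probes. Other partners and relatives of the members differed. KLF2 was lowest in the miR-511 array of experiment 2 (8.16), NAB2 in that of experiment 1 (11.51) and MAFF in the control of experiment 2 (4.95). The brighter KLF6 probe was lowest in the miR-511 array of experiment 1 (9.43) and the dimmer in the control of experiment 1 (4.04). SRF itself gave 0.32 and -0.73 and was lowest in the miR-511 array of experiment 2. EGR3 was well above background on no array and EGR4 on 1.

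**Figure D5:**
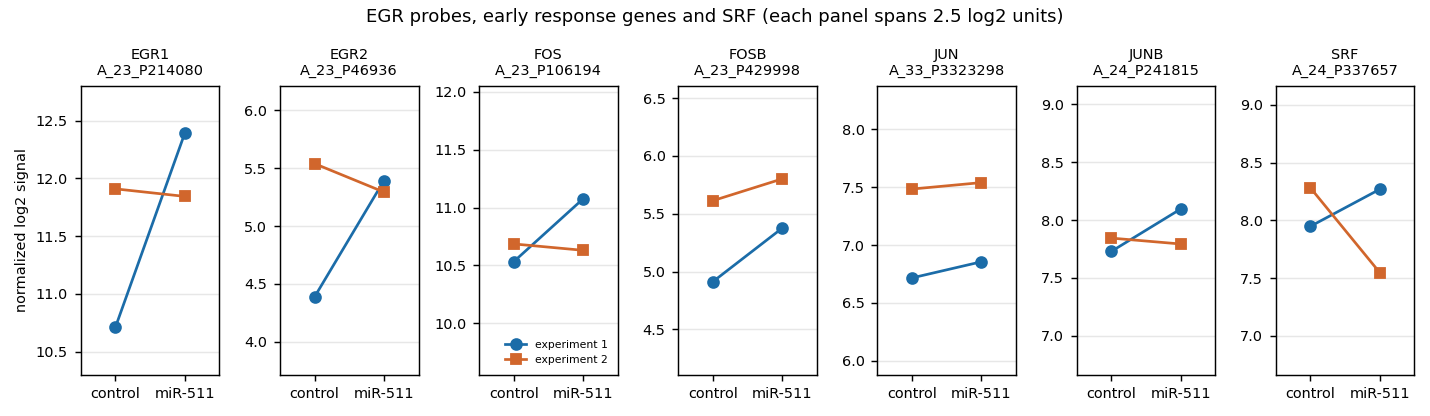
Normalized log2 signal of EGR1, EGR2, 4 other early response genes and SRF (vertical axis, each panel spanning 2.5 log2 units) with control mimic and miR-511 mimic (horizontal axis). Lines join the 2 arrays of an experiment. In 6 of the 7 genes, picked after their values were seen, the lowest array was the control of experiment 1. The same held for 25.5% of all tested probes. KLF2, MAFF and NAB2, not shown, were lowest on other arrays.

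Of 38 tested probes of partners and relatives of the members, 1 passed the unadjusted threshold upward and none downward (all tested probes: 2.20%). It was a RUNX2 probe (A_32_P161762), a runt domain relative of RUNX1, which read 4.01 and 3.11 in experiment 1 and 3.98 and 3.67 in experiment 2, miR-511 mimic first. Both miR-511 arrays exceeded both controls. The log2FC was 0.61 (SE 0.21, limma unadjusted p = 0.0441, adjusted p = 1.00). The signal was close to background, and with normexp background correction the log2FC was 0.07 (unadjusted p = 0.394). The unadjusted p of limma also rose above 0.05 without either miR-511 array, where the log2FC stayed at 0.58 and 0.63 (unadjusted p = 0.122 and 0.101), and without the control of experiment 1, where it was 0.33 (unadjusted p = 0.0880). The other RUNX2 probe was well above background on no array. The median log2FC of the list was -0.00500.

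Genes that the members are known to drive did not pass the threshold in the monocyte or granulocyte lists. None of 11 tested probes for monocyte and macrophage genes passed the unadjusted threshold, with a median log2FC of 0.01. CSF3R and CSF1R, the receptors for G-CSF and M-CSF, had log2FC of 0.01 (SE 0.14) and 0.07 (SE 0.15). The macrophage protein CD68 had -0.09 (SE 0.17). The lysosomal protease CTSD had -0.20 (SE 0.09), with differences of -0.15 and -0.25 in experiments 1 and 2. Its treatments did not overlap, which held for 25.7% of all tested probes. With normexp background correction the log2FC of CTSD was -0.21 (limma unadjusted p = 0.0390, adjusted p = 0.9998). In that setting 265 of 22638 tested probes passed the unadjusted threshold. None of 7 granulocyte probes passed, with a median of -0.01. The granule proteases CTSG, ELANE and PRTN3 had -0.01, -0.10 and -0.01, and the granule protein AZU1 had 0.02. CTSG, the brightest of these, read 18.57 on both control arrays (SD 6.5e-06). Quantile normalization sets values by rank, so the CTSG difference may not show a change in its intensity.

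Lists tied to the GATA factors held many dim probes. Of 20 erythroid probes 10 were tested and none passed, with a median log2FC of 0.11. The erythropoietin receptor EPOR had -0.02 (SE 0.09). The globins HBZ and HBG1, which have near-identical relatives that may bind the same probe, had 0.16 and 0.11. Another probe of each was well above background on no array. None of 7 megakaryocyte probes passed, with a median of 0.09. The platelet glycoprotein GP1BB had -0.06 by its brighter probe and 0.02 by the other, GP9 had -0.11, the integrin ITGA2B had 0.09 and VWF had 0.20. With the replicate block, 1 probe of each list passed the unadjusted threshold, as did 894 of the 22638 tested probes. The platelet integrin ITGB3 had differences of 0.38 and 0.30 in the 2 experiments and a log2FC of 0.34 (limma unadjusted p = 0.0246 with the replicate block, adjusted p = 0.969, and 0.122 without the block). The hemoglobin chaperone AHSP, tested only through the 2 control arrays, where it was higher, had -0.55 (unadjusted p = 0.0336 with the replicate block, adjusted p = 0.969, and 0.133 without).
The mast cell and progenitor list had a median log2FC of 0.16. Of its 5 tested probes 1 passed upward and none downward, against 2.20% of all tested probes. It was CPA3, the mast cell carboxypeptidase (A_23_P18017), which read 4.20 and 3.72 in experiment 1 and 4.11 and 3.44 in experiment 2. The log2FC was 0.58 (SE 0.14, limma unadjusted p = 0.0122, adjusted p = 1.00). Both miR-511 arrays and 1 of 2 control arrays were well above background, so CPA3 was tested only through the treatment in which it was higher, and it is not tested when all 4 arrays must pass. With normexp background correction it was 0.08 (unadjusted p = 0.375). The unadjusted p of limma also rose above 0.05 without the miR-511 array of experiment 1 (log2FC 0.52, unadjusted p = 0.0556) and without the control of experiment 2 (log2FC 0.43, unadjusted p = 0.0525).

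Probes of other genes closely matched the pattern of each tested member over the arrays. For EGR1 the most similar probes of other genes were those of ZNF737, MADD and USP37, and for EGR2 those of ARHGEF19, LYNX1 and DNAJC17. SPI1 resembled ZBTB25, NXNL2 and IRX3, KLF4 resembled FMNL3, TUFT1 and FNBP1L, and GFI1 resembled PIGQ, NCRNA00246 and OR1S2. RUNX1, by its brightest probe A_24_P96403, resembled SEC16A, GNPDA1 and RPL13P5, and its other probes were not compared. GATA2 resembled TUBA1C, BARD1 and FAM49B, and MAF resembled ZDHHC18, SBNO2 and SCAP. Pearson's r over the 4 arrays rounded to 1.00 for each of these. So few arrays make high values common, as between 281 and 1038 of the 22638 tested probes had an r above 0.95 with a member.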

How the data were processed

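THP1 transcripts were measured on 4 single-dye Agilent Human Whole Genome Microarrays. The authors deposited 1 scanner file per array, made with Agilent Feature Extraction (version 10.5.1.1 per the submitters' processing notes, 10.7.3.1 per the file headers), whose processed intensity is background-subtracted within each array. The deposited table of log2 values, quantile normalized by the authors, was an alternative.

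With R 4.3.3 and limma 3.58.1, log2 processed intensities of 43118 non-control spots were taken, spots marked as outliers (232 to 301 per array) were left out, arrays were quantile normalized and the spots of a probe averaged. Tested were probes with 4 values that passed the background call on both miR-511 arrays, both control arrays or all 4, by lmFit and eBayes (two-sided, 4.14 degrees of freedom). The number of arrays limits the precision. Thresholds were a p below 0.05, unadjusted or Benjamini-Hochberg adjusted. The study used the unadjusted one together with a test over identical replicate probes, which was not applied here, as each member probe was printed once. The functions were tested on simulated data.

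Members and gene lists were chosen with earlier results of these data known. Named were each member probe and every gene of a further list with a called probe, or up to 4 genes of highest level. Also named were the 3 probes most correlated with the brightest probe of each member. Some genes that this rule names are not reported here. All 13 member probes matched RefSeq by accession, with the names in the files. Probe coordinates are hg19, as deposited.

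The labels give each array an experiment number, which pairs the arrays. Deviations from treatment means of same-numbered arrays correlated at 0.271 across probes. The main model had no such term, as the methods name none. All arrays were on 1 slide, so no slide term was used. Alternatives were scaling to the 75th percentile, correction of the background by normexp (offset 50), 2 other filters on dim probes, outlier spots kept, the deposited table, a replicate block, an intensity trend, a plain equal-variance test of probe averages (the study names such a test only for identical replicate probes) and leaving out each array.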

Additional observations from a re-analysis of the deposited data

How the results depend on the processing

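The count of tested probes past the unadjusted threshold, 498 in the report, was 265 with normexp background correction, 1029 with no filter on dim probes, 894 with the replicate block and 285 with an intensity trend, and 713 to 1438 with each array left out. No setting gave a probe past the adjusted threshold. The count of member probes past the unadjusted threshold was 0 under each setting with 4 arrays, the replicate block included, and 0 to 2 with each array left out, the 2 being EGR1 and EGR2 without the control array of experiment 2.

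Among partners and relatives the count of 1 became 0 with normexp, with no filter, with the intensity trend and with the plain equal-variance test, and it was 0 to 2 with each array left out. The monocyte and macrophage count of 0 became 1 with normexp (CTSD) and with no filter (CD163), and 0 to 1 with each array left out. The erythroid count of 0 became 2 with no filter and 1 with the replicate block, and 0 to 1 with each array left out, and the megakaryocyte count became 1 with the replicate block. In the mast cell and progenitor list the count of 1 became 0 with normexp, with the filter that asks for all 4 arrays, with the intensity trend and with the plain equal-variance test, 4 with no filter, and 0 to 2 with each array left out.

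Normexp turned the direction of GFI1 (0.0024), of the RUNX1 probes A_24_P96403 (-0.064) and A_24_P34155 (-0.0024) and of MAF (0.0045). Leaving out single arrays turned SPI1 (-0.012 to 0.23), EGR2 (-0.20 to 0.95), GATA2 (-0.082 to 0.30), MAF (-0.25 to 0.23) and the RUNX1 probes A_24_P96403 (-0.053 to 0.079), A_33_P3211804 (-0.27 to 0.022), A_24_P34155 (-0.10 to 0.13) and A_33_P3211818 (-0.085 to 0.11). The cause was not tested. KLF4, EGR1 and the RUNX1 probe A_33_P3211809 kept their direction under each setting tried. Under 75th percentile scaling, the deposited table, kept outlier spots and the replicate block, each member probe kept its direction and its side of the threshold. A slide block was not run, as 1 slide held all arrays. Signal over background limits MAF, EGR2, RUNX2 and CPA3, whose probes were dim, and GATA1, which was not well above background.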
